A study of Mus musculus with 12 samples.

Results

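Rgs16 encodes a regulator of G protein signalling. It is 1 of the 13554 genes in the deposited table of normalised liver RNA-seq values, and it was selected on the values of its own row, across all 12 columns. Each of 4 groups has 3 libraries, made from liver of wild-type (WT) male C57Bl/6J mice 3 days after an operation that removed part of that organ (partial hepatectomy). PH80_HC is removal of 80% of the liver in an arm named HC, PH80_G+H is removal of 80% with G-CSF and HNF4a, PH80 is removal of 80% alone and PH70 is removal of 70% alone. All groups share the genotype, strain, sex and day. The sources used here do not give the meaning of HC, the age of the mice, or how, when and at what dose G-CSF and HNF4a were used. The library titles name the resection, arm and day, and no hour of collection or feeding state. Any difference in these between groups was not tested and cannot be told apart from resection or arm. Nothing in the labels shows whether each library is another animal, and p-values therefore measure only the spread between libraries, which may be technical. Because those values chose the gene, they are given as a description with no test.

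Regulators of G protein signalling, the RGS proteins, speed the hydrolysis of GTP on the alpha subunits of heterotrimeric G proteins and so shorten the signal that a G protein-coupled receptor sends. RGS16 acts on alpha subunits of the Gi and Gq classes. In mouse liver Rgs16 RNA is known to vary with feeding and fasting and with the time of day, to be expressed in periportal hepatocytes during a fast, and to respond to glucose through the carbohydrate-sensing factor ChREBP, encoded by Mlxipl.

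Rgs16 (ENSMUSG00000026475.7) lies on the plus strand of chromosome 1 at 153740349 to 153745468 (GRCm38) and has 5 exons with 2339 exonic bases. An antisense transcript, Gm28513, runs from 153743552 to 153749324 on the other strand and covers the last 1917 bases of the gene. It has no row in the table, and since the sources used here do not say whether counting used strand, reads of the pair cannot be told apart. The 250 bases before the RefSeq transcription start (GRCm38.p6) are shown because the genes that followed Rgs16 most closely are described below, and the promoter of Txnip, a glucose-responsive gene among them, is set beside it. Capitals mark CCAAT boxes (CCAAT, or ATTGG where it lies on the minus strand) and GC boxes (GGGCGG, or CCGCCC where it lies on the minus strand), and both sequences are the plus strand, at chr1:153740103-153740352 for Rgs16 and at chr3:96557707-96557956 for Txnip.
Rgs16: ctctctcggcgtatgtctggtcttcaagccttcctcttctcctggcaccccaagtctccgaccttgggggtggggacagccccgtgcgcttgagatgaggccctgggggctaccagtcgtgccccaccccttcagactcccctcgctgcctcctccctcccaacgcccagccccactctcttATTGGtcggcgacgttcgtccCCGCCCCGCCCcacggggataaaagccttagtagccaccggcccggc
Txnip: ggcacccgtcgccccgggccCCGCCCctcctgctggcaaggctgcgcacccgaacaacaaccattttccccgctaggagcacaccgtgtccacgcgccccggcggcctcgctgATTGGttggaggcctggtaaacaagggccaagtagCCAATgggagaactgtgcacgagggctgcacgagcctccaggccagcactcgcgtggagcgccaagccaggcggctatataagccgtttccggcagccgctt
The Rgs16 window holds 66.4% G and C, against a median of 52.4% over 32851 mouse promoters. Counted from the start site, it has a CCAAT box at -68 to -64 and GC boxes at -47 to -42 and at -42 to -37, which share 1 base. On both strands, 33.8% of all promoters hold a CCAAT box and 32.7% a GC box in a window of the same length. The window holds no E-box (CACGTG, in 6.02% of promoters), no D-box (TTATGTAA or TTACGTAA, in 0.931%), no cAMP response element (TGACGTCA, in 1.55%) and no TATAAA (in 12.4%). Those letters may lie elsewhere at the gene, and a match is not a bound site.

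Rgs16 was low in every liver after 80% resection and high in every PH70 liver. The unit is the normalised read count, that is, reads divided by 1 size factor per library. Rgs16 had 8.91, 86.3 and 7.78 normalised reads in PH80_HC livers, from 11, 164 and 6 reads. In PH80_G+H livers it had 22.1, 3.96 and 25.8, from 12, 8 and 38 reads. In PH80 livers it had 4.22, 11.96 and 5.21, from 3, 16 and 5 reads. In PH70 livers it had 517, 362 and 421, from 854, 198 and 189 reads. All 9 libraries of the 80% resection lie below all 3 PH70 libraries, and the 3 groups of the 80% resection overlap one another. PH80_HC replicate 2 stands above the other 8 libraries of the 80% resection and below every PH70 library. The 95% Poisson interval of its value ran from 73.6 to 100.6, whereas the intervals of the other 8 ended between 7.80 and 38.6. The lowest PH70 library had an interval of 313 to 416. These intervals cover counting error only.

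**Figure D1:**
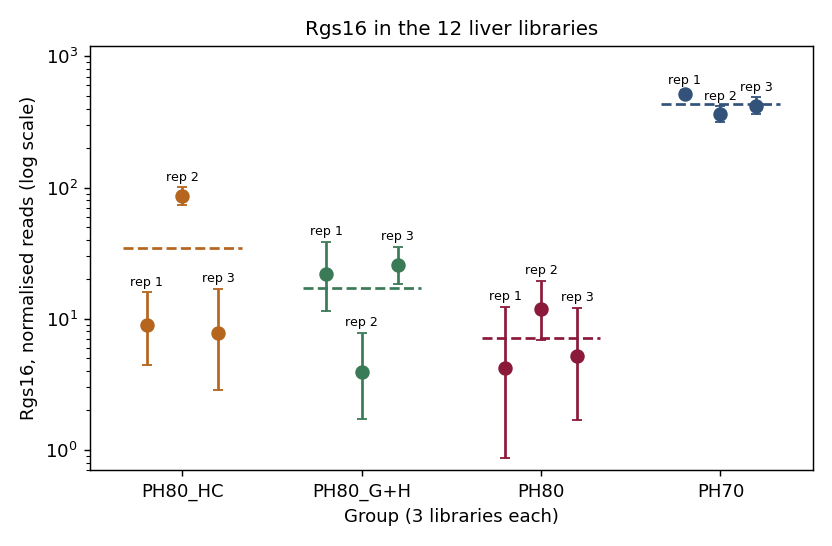
Rgs16 in each of the 12 libraries as normalised reads on a log axis, by group; points are libraries, vertical bars are 95% Poisson intervals and dashed lines are group means. PH80_HC replicate 2 sits at 86.3, the other libraries of the 80% resection at 3.96 to 25.8 and the PH70 libraries at 362 to 517.

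The mean level was 34.3 ± 45.0 normalised reads in PH80_HC, 17.3 ± 11.7 in PH80_G+H, 7.13 ± 4.21 in PH80 and 433 ± 78.1 in PH70 (SD, n = 3 each). In the order of these means, PH80_HC, PH80_G+H and PH80 do not differ beyond their spread, and PH70 stands apart from all 3. On the log2(value + 1) scale used for all differences here, PH80_HC was 4.45 units below PH70 (log2 difference -4.45), PH80_G+H stood at -4.89 and PH80 at -5.84. These 3 comparisons share the PH70 libraries. In each of them Rgs16 had the lowest difference of all 12570 genes that passed the filter on low values, which asked for 3 or more libraries with 10 or more normalised reads. The next lowest was Ppp1r3g, a glycogen-targeting subunit of protein phosphatase 1, in PH80 against PH70 (-5.53, with means of 0.596 and 70.7). It was Ugt2b38, a glucuronosyltransferase, in PH80_HC against PH70 (-3.18, with means of 31.3 and 241) and the desmosomal cadherin Dsg1c in PH80_G+H against PH70 (-3.91, with means of 5.05 and 80.01). Rgs16 passed the filter with 7 libraries, all 3 of PH70 and 4 of the 80% resection.

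Between the groups of the 80% resection the differences were smaller and the libraries overlapped. PH80_HC exceeded PH80 by a log2 difference of 1.39 and PH80_G+H exceeded PH80 by 0.96. These ranked 144 and 210 from the highest among the 12570 genes. Both comparisons share the PH80 libraries. Without PH80_HC replicate 2 the first difference was 0.32, and without PH80_G+H replicate 3 the second was 0.51. PH80_HC exceeded PH80_G+H by 0.44, a difference that turned to -0.64 without PH80_HC replicate 2 and to -0.34 without PH80_G+H replicate 2. On the recovered reads, edgeR and DESeq2 both gave 2.25 for PH80_HC against PH80, and 1.197 and 1.03 for PH80_HC against PH80_G+H.

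The spread of Rgs16 within a group was wide in PH80_HC and PH80_G+H and near that of other genes of its level in PH80 and PH70. The highest library exceeded the lowest 11.1-fold in PH80_HC, 6.53-fold in PH80_G+H, 2.84-fold in PH80 and 1.43-fold in PH70. The SD of log2(value + 1) was 1.86 in PH80_HC, against a median of 0.45 over the 1590 genes whose group mean lay within a factor of 2 of Rgs16, and 0.881% of those genes varied at least as much. In PH80_G+H it was 1.35 against a median of 0.44 over 1288 such genes, and 1.48% varied at least as much. In PH80 the SD of 0.70 was matched or exceeded by 41.3% of 552 genes, and in PH70 the SD of 0.26 by 35.9% of 4413 genes. These shares are a description and no test, since the same values chose Rgs16. The SD in PH80_HC rests on replicate 2, at 86.3 against 8.91 and 7.78. Within a library, Rgs16 exceeded 9.55%, 27.2% and 7.78% of all genes in PH80_HC, 15.7%, 5.22% and 16.1% in PH80_G+H, 3.78%, 10.1% and 6.14% in PH80 and 62.6%, 53.7% and 58.1% in PH70.

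The other RGS genes were tested, since their values did not choose Rgs16, and none was called. Of the 21 other genes on the RGS list, 13 were in the table and 10 passed the filter, and limma, fitted across all genes with Benjamini-Hochberg adjustment, called 0 of them in any of 3 comparisons, namely PH80 against PH70, PH80_HC against PH80 and PH80_G+H against PH80. Of all 12570 tested genes, 3.82% were called at an adjusted p under 0.05 in PH80 against PH70 (1.09% higher and 2.73% lower in PH80). In PH80_HC against PH80 it was 0.891% (0.652% higher, 0.239% lower), and in PH80_G+H against PH80 0.119% (0.111% higher, 0.00796% lower). With 10 RGS genes tested, a count of 0 is near these shares. At an unadjusted p under 0.05 the RGS genes numbered 2, 0 and 2, and edgeR and DESeq2 also called 0. The median log2 differences of the 10 genes were 0.03, -0.07 and -0.20, against medians of 0.01, 0.01 and 0.00 over all genes.

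Per kb of exon, Rgs16 held rank 6 of 14 RGS genes in PH80_HC at 14.7 ± 19.2 normalised reads per kb, rank 8 in PH80_G+H at 7.39 ± 5.001, rank 10 in PH80 at 3.05 ± 1.80 and rank 2 in PH70 at 185 ± 33.4 (SD, n = 3 each). Rgs5, an RGS gene of pericytes and vascular smooth muscle, ranked first in every group, at 238 ± 37.0 normalised reads per kb in PH80_HC, 253 ± 45.4 in PH80_G+H, 242 ± 36.4 in PH80 and 228 ± 30.9 in PH70. The order of Rgs5 above Rgs16 in PH70 does not exceed the spread of both. Rgs2, which acts mainly on Gq, had 369.9, 287 and 176 normalised reads in PH80 livers, against 139, 148 and 209.6 in PH70 livers (log2 difference 0.70, SE 0.28, adjusted p = 0.175). Its groups overlap. Rgs19, a Gi-directed family member, had 111 ± 23.0 normalised reads in PH80 and 69.6 ± 11.5 in PH70 (SD, n = 3 each; limma log2 difference 0.66, adjusted p = 0.144), and it is named here because its groups do not overlap, a choice made after its values were seen. Of all tested genes, 27.01% had groups that do not overlap in PH80 against PH70. Rgs3 and Rgs4 had limma adjusted p of 0.74 and 0.549 in this comparison.

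**Figure D2:**
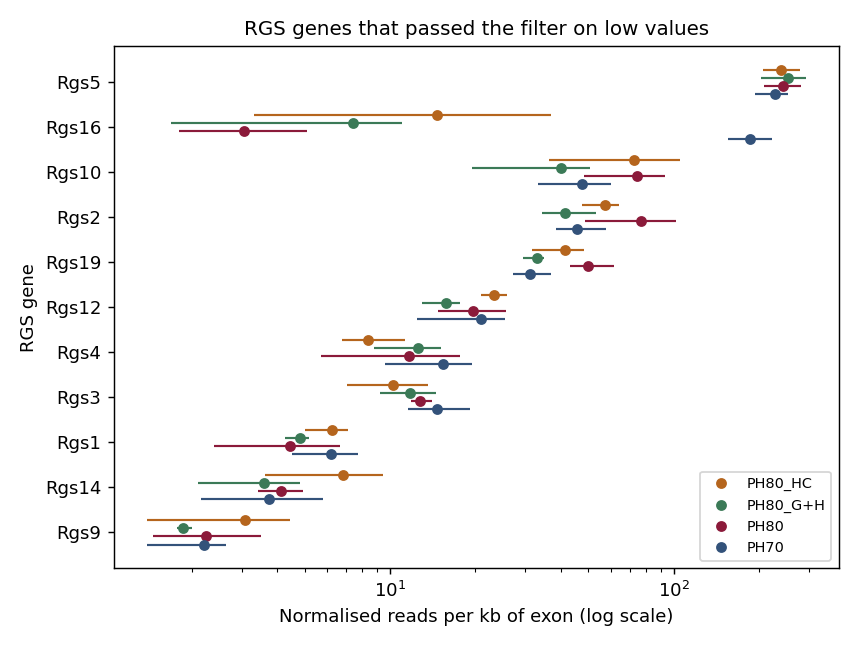
Normalised reads per kb of exon (log axis) of the 11 RGS genes that passed the filter on low values, Rgs16 included, by group; points are means of 3 libraries and lines run from the lowest to the highest library. Rgs16 spans 3.05 in PH80 to 185 in PH70, whereas Rgs5 stays between 228 and 253.

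None of the genes for G protein subunits, the partners of RGS proteins, was called by limma, a count near the share of all genes. Of 27 such genes, 22 were in the table and 19 passed the filter, and 0 were called by limma or edgeR in any of the 3 comparisons (4, 0 and 2 at an unadjusted p under 0.05; DESeq2 called 1, 0 and 0). Of all tested genes, limma called 3.82%, 0.891% and 0.119%, so 0 of 19 is near those shares. The alpha subunits that RGS16 can act on were among the subunit genes tested. Gnai2 had 4326 ± 758 normalised reads in PH80 and 3934 ± 641 in PH70 (SD, n = 3 each; limma log2 difference 0.13, SE 0.20, adjusted p = 0.734). Gnai3 had a log2 difference of -0.22 (limma adjusted p = 0.609), Gnaq of -0.31 (limma adjusted p = 0.363), Gna11 of 0.00 (limma adjusted p = 0.993) and Gnai1 of 0.00 (limma adjusted p = 0.999).

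Among receptors and effectors, 4 genes were called between PH80 and PH70. Of 46 G protein-coupled receptors, 39 were in the table and 34 passed the filter. Adora1, the A1 adenosine receptor that signals through Gi, fell in PH80, with 373, 436 and 453 normalised reads in PH80 livers and 1019.8, 972 and 624 in PH70 livers (log2 difference -1.02, SE 0.22, limma adjusted p = 0.0234). Adra1a, an alpha-1 adrenergic receptor that signals through Gq, fell as well, with 12.7, 6.73 and 26.0 in PH80 livers and 48.4, 40.2 and 60.2 in PH70 livers (log2 difference -1.82, SE 0.43, limma adjusted p = 0.0354). The groups do not overlap for either receptor, as for 27.01% of all tested genes in this comparison. The glucagon receptor Gcgr had a log2 difference of -0.01 (SE 0.30, limma adjusted p = 0.988).

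Of 28 effector genes, 25 were in the table and 24 passed the filter. Adcy1, an adenylyl cyclase that makes cAMP, rose in PH80, with 47.8, 115 and 51.0 normalised reads in PH80 livers and 4.84, 16.5 and 17.8 in PH70 livers (log2 difference 2.42, SE 0.56, limma adjusted p = 0.0319). Adcy9, another adenylyl cyclase, fell, with 143, 203 and 229 in PH80 livers and 415, 444 and 384 in PH70 livers (log2 difference -1.13, SE 0.20, limma adjusted p = 0.00907). Over the 87 tested genes of the 4 lists together, 4.598% were called, close to the 3.82% of all genes, and the median log2 difference was -0.06. The count of 4 was 0 without PH70 replicate 2, 1 without PH70 replicate 1, PH80 replicate 1 or PH80 replicate 2, and 7 without PH80_HC replicate 3. Adra1a lost its call in 10 of 24 alternatives and Adcy1 in 6 of 25. In PH80_HC against PH80 and in PH80_G+H against PH80, 0 of the 87 genes were called by limma or edgeR (11 and 10 at an unadjusted p under 0.05). Of all genes, limma called 0.891% and 0.119%. Of the 87, DESeq2 called 4 and 1, and without PH80_HC replicate 3 limma called 1 in the first.

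The carbohydrate-induced genes, a list of ChREBP and its targets, held both directions. All 27 were tested, and in PH80 against PH70 4 fell and 1 rose, 18.5% of the list against 3.82% of all genes, with a median log2 difference of -0.40. Txnip, which limits glucose uptake, had 745, 562 and 575 normalised reads in PH80 livers and 2034, 1676 and 1844 in PH70 livers (log2 difference -1.57, SE 0.23, limma adjusted p = 0.00446). It kept its call in all 25 alternatives. G6pc, the catalytic subunit of glucose-6-phosphatase, fell by 1.86 (log2 difference -1.86, limma adjusted p = 0.00662). Klf10, a zinc finger repressor, had a difference of -1.90 (limma adjusted p = 0.0111) and Pklr, the liver pyruvate kinase, of -1.50 (limma adjusted p = 0.0204). Pnpla3, a lipid droplet protein induced by feeding, rose, with 346, 122 and 312 normalised reads in PH80 livers and 58.1, 20.1 and 51.3 in PH70 livers (log2 difference 2.56, SE 0.48, limma adjusted p = 0.0138). Mlxipl itself had 4726 ± 882 in PH80 and 5935 ± 2546 in PH70 (SD, n = 3 each; log2 difference -0.26, limma adjusted p = 0.72). In PH80_HC and in PH80_G+H against PH80, limma and edgeR called 0 of the 27, with medians of 0.12 and 0.25. DESeq2 called 1 and 1, and 5 and 5 had an unadjusted limma p under 0.05. Of all genes, limma called 0.891% and 0.119%.

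Of the 30 fasting-induced genes, all tested, 4 fell and 0 rose in PH80 against PH70. That is 13.3% of the list against 3.82% of all genes, with a median log2 difference of -0.52. Lpin1, a phosphatidate phosphatase and coactivator of fat oxidation, had 266, 246 and 269 normalised reads in PH80 livers and 541, 779 and 1175 in PH70 livers (log2 difference -1.60, SE 0.30, limma adjusted p = 0.0137). Ppara, the nuclear receptor that drives the fasting programme of fat oxidation, had 866, 695 and 1394 in PH80 livers and 3630.1, 3549.9 and 2072 in PH70 livers (log2 difference -1.66, SE 0.32, limma adjusted p = 0.0142). The groups of both genes do not overlap, as for 27.01% of all tested genes. Cpt1a, which admits fatty acids to mitochondria, fell (log2 difference -1.18, limma adjusted p = 0.0227).

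In PH80_HC against PH80, 2 fasting-induced genes rose and 0 fell, 6.67% of the list against 0.891% of all genes, with a median of 0.66. They were Angptl4, an inhibitor of lipoprotein lipase (log2 difference 1.87, limma adjusted p = 0.0393, lost in 14 of 25 alternatives), and Cyp4a14, a fatty acid hydroxylase (2.08, limma adjusted p = 0.0389, lost in 11). In PH80_G+H against PH80, Lpin1 alone was called, with 1166, 1448 and 741 normalised reads in PH80_G+H livers and 266, 246 and 269 in PH80 livers (log2 difference 2.05, limma adjusted p = 0.0243, lost in 7 of 25 alternatives). That is 3.33% of the list against 0.119% of all genes, with a median of 0.53. Cpt1a exceeded PH80 by 0.71 in PH80_HC and by 0.72 in PH80_G+H (limma adjusted p = 0.206 and 0.313).

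The count of 9 carbohydrate-induced and fasting-induced genes in PH80 against PH70 was 1 without PH70 replicate 2 and 5 without PH70 replicate 1 or without PH80 replicate 1. The count of 2 in PH80_HC against PH80 was 3 without PH80_G+H replicate 2 or PH70 replicate 3, 0 without PH80_HC replicate 1 or 2, PH80_G+H replicate 1 or 3, PH80 replicate 1 or PH70 replicate 2, and 1 without PH80 replicate 2 or 3. The count of 1 in PH80_G+H against PH80 was 0 without PH80_G+H replicate 1 or 2, PH80 replicate 1 or 2, or PH70 replicate 2. The comparisons share the PH80 libraries.

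Single libraries also decided calls of single genes in PH80 against PH70. Without PH70 replicate 2, Adcy9 (limma adjusted p = 0.0621), G6pc (limma adjusted p = 0.0513), Klf10 (limma adjusted p = 0.0717) and Lpin1 (limma adjusted p = 0.0654) were no longer called, and each kept its call when any other single library was left out. Pnpla3 was not called without PH70 replicate 2 or PH80 replicate 1 (limma adjusted p up to 0.0755), and Pklr was not called when any 1 PH70 library was left out (up to 0.0835). Adora1, Ppara and Adcy1 were not called without PH70 replicate 1 or 2 or without PH80 replicate 1 or 2 (up to 0.125, 0.0828 and 0.117). Cpt1a was not called when any 1 PH70 library or PH80 replicate 1 was left out (up to 0.112). Adra1a was not called when any 1 PH70 library, PH80 replicate 1 or 2, or PH80_G+H replicate 3 was left out (up to 0.116).

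**Figure D3:**
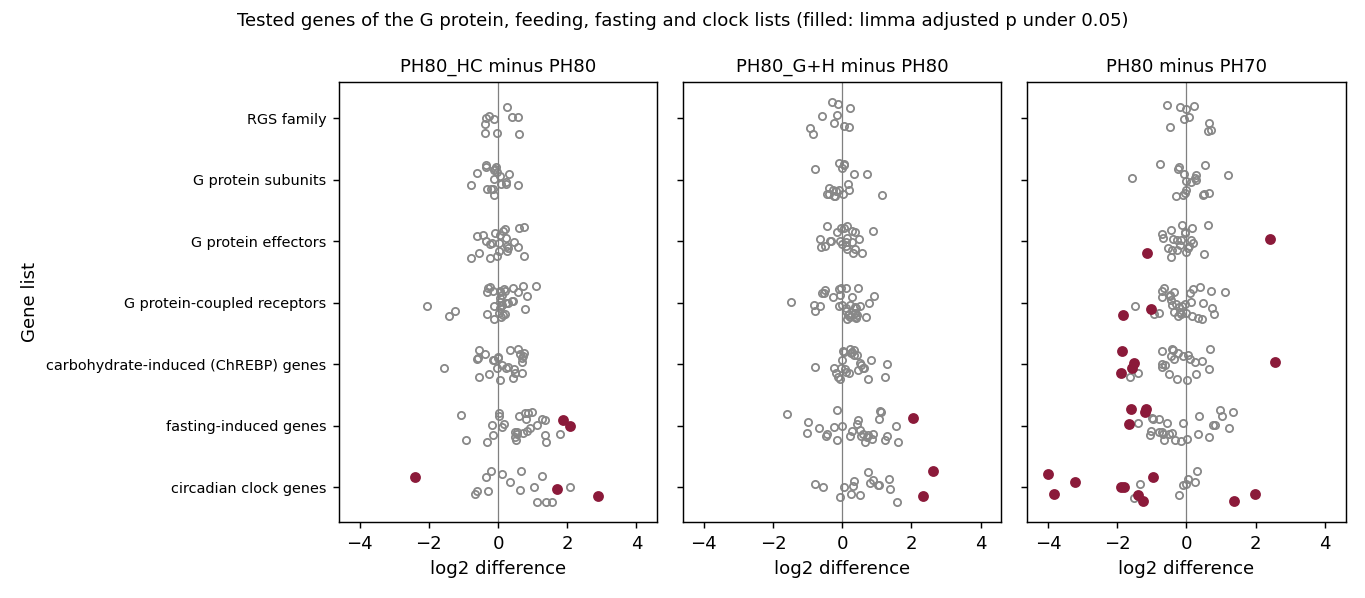
Log2 difference of each tested gene of 7 lists, drawn as 1 point, in PH80_HC minus PH80, PH80_G+H minus PH80 and PH80 minus PH70; filled points are genes called by limma at an adjusted p under 0.05. In PH80 minus PH70 the clock list holds 10 filled points, the carbohydrate-induced list 5, the fasting-induced list 4, the receptors and the effectors 2 each, and the RGS family and the subunits 0.

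Of 18 tested clock genes, 8 fell and 2 rose in PH80 against PH70, 55.6% of the list against 3.82% of all genes, with a median of -1.12. Dbp and Tef rose and Npas2, a partner of the clock's BMAL1, fell in PH80_HC against PH80, 16.7% of the list against 0.891% of all genes, with a median of 0.66. In PH80_G+H against PH80, Dbp and Nr1d1 rose, 11.1% of the list against 0.119% of all genes, with a median of 0.78. Dbp, a transcription factor that is a direct output of the clock, had 676 ± 264 normalised reads in PH80_HC, 541 ± 68.4 in PH80_G+H, 92.1 ± 39.8 in PH80 and 1375 ± 721 in PH70 (SD, n = 3 each). Dbp was called higher in PH80_HC than in PH80 (log2 difference 2.90, limma adjusted p = 0.0118) and in PH80_G+H than in PH80 (2.64, limma adjusted p = 0.0243, lost in 9 of 25 alternatives, among them those that left out any 1 PH80_G+H library, PH80 replicate 1 or 2, or PH70 replicate 2, with adjusted p up to 0.177). The clock count of 10 was 6 without PH70 replicate 2. Tef was not called in PH80_HC against PH80 without PH80_HC replicate 1 or 2 or PH80 replicate 1 (limma adjusted p up to 0.0727). The count of 2 in PH80_G+H against PH80 was 0 when any 1 PH80_G+H library, PH80 replicate 1 or 2, or PH70 replicate 2 was left out.

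Because Rgs16 RNA of fasted liver is periportal, zonation markers were set beside it. Of 16 periportal genes, 2 fell in PH80 against PH70, 12.5% of the list against 3.82% of all genes. They were Pigr, the polymeric immunoglobulin receptor (log2 difference -1.90, limma adjusted p = 0.00299), and the cytochrome Cyp2f2 (-1.49, limma adjusted p = 0.0158), and the list median was -0.11. Cyp2f2 was not called without PH70 replicate 2 or without PH80 replicate 2 (limma adjusted p up to 0.0906). Of 16 pericentral genes, 6 fell, 37.5% of the list, among them the ethanol-oxidising cytochrome Cyp2e1 (-2.05, limma adjusted p = 0.00761), and the median was -0.89. Each of these 6 lost its call without PH70 replicate 2, with a limma adjusted p of 0.0579 for Cyp2e1 and up to 0.168 for Ces3a. In PH80_HC against PH80, where 0.891% of all genes were called, 1 periportal gene (Pigr) and 3 pericentral genes (Cyp2e1, Slc1a2 and Glul) rose, with medians of 0.21 and 1.07. All 4 lost their calls without PH80 replicate 1 (limma adjusted p from 0.0553 for Pigr to 0.113 for Glul), and all but Cyp2e1 also without PH80_HC replicate 1 or 3. In PH80_G+H against PH80 limma called 0 of both lists, against 0.119% of all genes. At an unadjusted p under 0.05 the lists held 2 and 9. Of these lists edgeR called 0, and DESeq2 2 and 1. In bulk tissue, fewer cells of a type and less RNA per cell cannot be told apart.

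The genes whose pattern was most like that of Rgs16 were found by Pearson's r of log2(value + 1) over the 12 libraries, among 10561 genes with a mean value of at least 50 and a symbol that is not that of a predicted gene. The libraries share depth and tissue makeup, and the PH70 libraries set most of the range of Rgs16, so r is also given over the 9 libraries of the 80% resection. The 8 highest were Tmem131l (r 0.91 over 12 libraries, 0.66 over 9), Casp6, an executioner caspase (0.90, 0.69), Flcn, folliculin, which takes part in nutrient sensing by mTORC1 (0.89, 0.71), Mxi1, a MAX-binding repressor (0.89, 0.56), Podn, a matrix proteoglycan (0.89, 0.90), Stard7, a phosphatidylcholine transfer protein (0.88, 0.78), Txnip (0.87, 0.52) and Rbm33, an RNA-binding protein (0.87, 0.95). The ninth gene had 0.869, and 50 genes exceeded 0.8. Spearman's rho of the 8 ran from 0.66 for Tmem131l to 0.91 for Rbm33. The lowest r belonged to Pgs1, an enzyme of cardiolipin synthesis (-0.91), Ocstamp (-0.91), Raph1, a lamellipodial protein (-0.90), and Upp1, a uridine phosphorylase (-0.89).

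The group means of these genes lay closer together than those of Rgs16. Tmem131l had 357 ± 121 normalised reads in PH80_HC, 307 ± 33.2 in PH80_G+H, 261 ± 29.1 in PH80 and 562 ± 44.8 in PH70. Flcn had 693 ± 221 in PH80_HC, 565 ± 51.8 in PH80_G+H, 382 ± 79.4 in PH80 and 1102 ± 150.1 in PH70 (SD, n = 3 each). In both, as in Rgs16, PH80_HC replicate 2 was the highest library of the 80% resection, at 489.5 for Tmem131l and 937 for Flcn. Both genes were chosen by r with Rgs16 over these libraries, so a shared high library is partly built in. Over the 9 libraries of the 80% resection, 2 of the 8 genes, Podn and Rbm33, were again among the 8 highest. The r over these libraries leans on PH80_HC replicate 2, which stood above the others in Rgs16. By r of deviations from group means, 1 of the 8 genes was among the 8 highest. Rbm33 had 594, 1059 and 656 normalised reads in PH80_HC livers, 666, 579 and 744 in PH80_G+H livers, 549.9, 637 and 560.4 in PH80 livers and 1043, 1013 and 756 in PH70 livers, and its PH80_HC replicate 2 reached the PH70 range. Of the promoters of the 8 genes, 1 (Tmem131l) holds an E-box, 2 (Stard7 and Txnip) a CCAAT box and 7 a GC box. Of all promoters, 6.02% hold an E-box, 33.8% a CCAAT box and 32.7% a GC box. Of the 4 genes of lowest r, 3 had a promoter sequence and all 3 hold a GC box. So do 14 of 16 clock genes and 8 of 21 carbohydrate-induced genes with a promoter sequence.

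**Figure D4:**
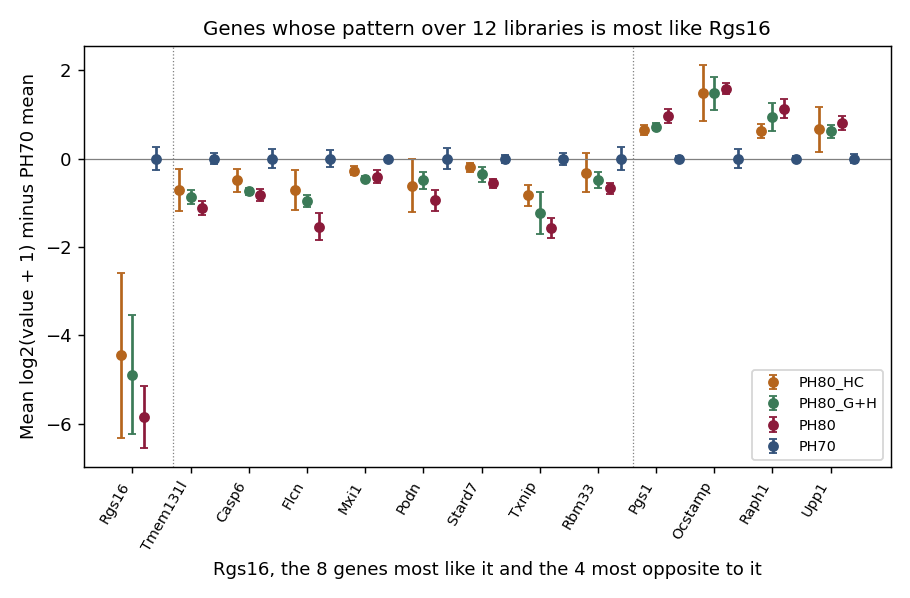
Mean log2(value + 1) of each group minus the PH70 mean, for Rgs16, the 8 genes of highest r and the 4 of lowest r with it; points are means of 3 libraries and bars are SD within the group. Rgs16 lies at -4.45 in PH80_HC, -4.89 in PH80_G+H and -5.84 in PH80, and all other genes shown lie much nearer to 0.

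Per3, a period gene of the clock, was seventh of the genes ordered by r over the 9 libraries of the 80% resection (0.87) and is named after its values were seen. It had 96.4, 481 and 67.5 normalised reads in PH80_HC livers, 131, 102 and 188 in PH80_G+H livers, 68.9, 59.1 and 71.9 in PH80 livers and 396, 135 and 91.4 in PH70 livers. As with Rgs16, PH80_HC replicate 2 stood above the other libraries of the 80% resection, and here it also exceeded all PH70 libraries. Per3 was chosen by r over the 9 libraries, so this shared high library is partly built in. Over the 12 libraries the r of Per3 with Rgs16 was 0.60. Among genes of the lists, Txnip was followed in r over 12 libraries by the pericentral cytochrome Cyp2a5 (0.86, and 0.69 over the 9). Next came Klf10 (0.81, 0.28) and the clock-output factor Hlf (0.79, 0.56). The lowest r belonged to the clock repressor Cry1 (-0.80, -0.36), Adcy1 (-0.76, -0.10) and Tm6sf2 of the carbohydrate-induced list (-0.69, -0.31). Of the other metabolic and clock genes described above, Cpt1a had 0.75 and 0.60, Ppara 0.73 and 0.49, Dbp 0.70 and 0.52, and Mlxipl 0.41 and 0.55. Nr1d1 had 0.74 and 0.45, Tef 0.66 and 0.70, G6pc 0.66 and 0.22, and Pklr 0.65 and 0.06. Lower values over the 12 libraries belonged to Lpin1 (0.28, 0.18), Angptl4 (0.10, 0.26) and Cyp4a14 (0.05, 0.55). Npas2 (-0.53, -0.49) and Pnpla3 (-0.63, -0.07) had negative r. The list medians below are over the 12 libraries, in which the PH70 libraries set most of the range of Rgs16. List medians of r were 0.55 over 17 clock genes, 0.38 over 16 pericentral genes, 0.29 over 23 receptors, 0.28 over 20 effectors, 0.20 over 27 carbohydrate-induced genes, 0.10 over 29 fasting-induced genes, 0.01 over 6 RGS genes, -0.01 over 15 periportal genes and -0.17 over 15 subunits, against -0.01 over all genes compared.

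**Figure D5:**
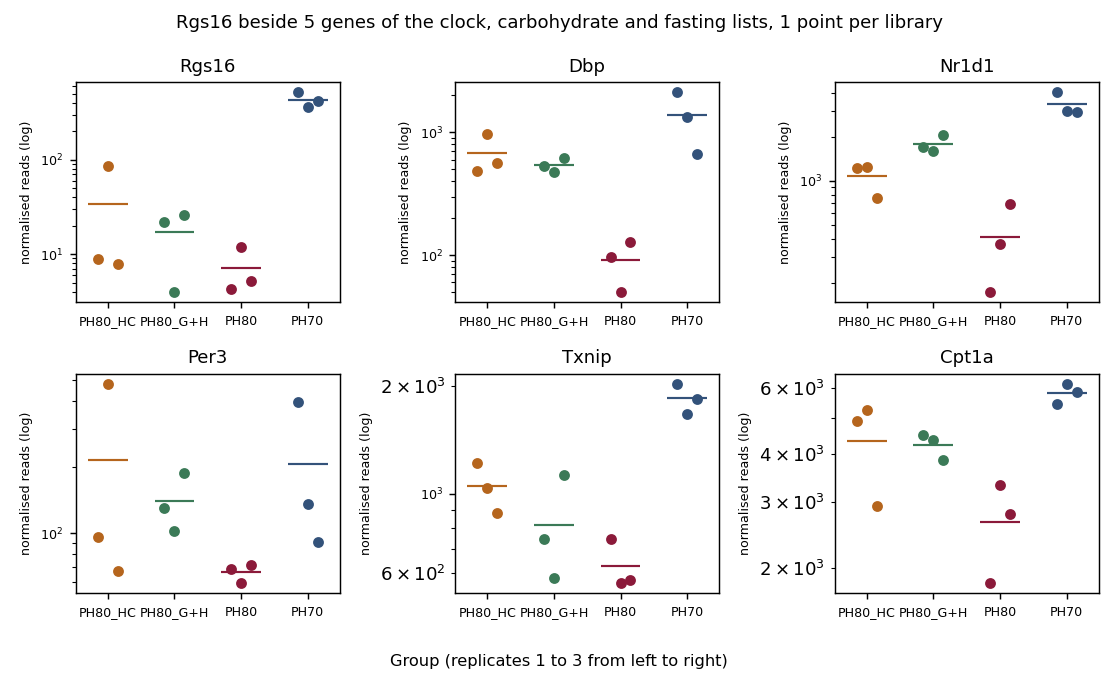
Rgs16 beside Dbp, Nr1d1, Per3, Txnip and Cpt1a in every library (normalised reads, log axes), by group, with lines at group means. Dbp lies at 479 to 977 in PH80_HC and PH80_G+H and at 50.1 to 129 in PH80, whereas Rgs16 overlaps among these 3 groups. PH80_HC replicate 2 is the highest library of the 80% resection in Rgs16 (86.3), Dbp (977), Per3 (481) and Cpt1a (5226). Per3 was chosen by r with Rgs16 over libraries of the 80% resection, so its shared high library is partly built in.

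Of the genes beside Rgs16, Glul alone was called. Within 500 kb, 5 other protein-coding genes were in the table. The laminin gene Lamc1 (log2 difference 0.06, limma adjusted p = 0.945), the helicase gene Dhx9 (-0.56, limma adjusted p = 0.2) and Npl, an N-acetylneuraminate lyase (-0.33, limma adjusted p = 0.577), were not called. Glul, glutamine synthetase of pericentral hepatocytes, lies 154476 bases away. It fell, with 6240.1, 4236 and 9049.6 normalised reads in PH80 livers and 11062, 16753 and 16187 in PH70 livers (log2 difference -1.22, SE 0.28, limma adjusted p = 0.0338, lost in 8 of 25 alternatives, among them those without PH80 replicate 1 or 2 and without PH70 replicate 2 or 3, with adjusted p up to 0.154). The r of the 5 neighbours with Rgs16 over the 12 libraries ran from -0.11 for Lamc1 to 0.41 for Glul.

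Recovered reads per library ranged from 9720887 in PH70 replicate 3 to 44526542 in PH80_G+H replicate 2. The slope of value on gene length differed between libraries. It ran from -0.227 (log2 units per doubling of length) in PH80_HC replicate 3 to 0.182 in PH80_G+H replicate 2. In PH70 replicate 3 it was 0.179. All 8 hepatocyte markers had reads in every library, and their summed value ran from 3257360 to 5199090 in PH80_HC, from 2978300 to 3722970 in PH80_G+H, from 2582450 to 2868230 in PH80 and from 3496370 to 3801270 in PH70. Summed markers of T and NK cells (8 of 10 genes in the table) were 173, 502 and 593 in PH80_HC, 99.3, 42.5 and 97.9 in PH80_G+H, 242, 78.5 and 47.9 in PH80 and 58.7, 74.9 and 64.7 in PH70. In their highest library, PH80_HC replicate 3, Rgs16 was 7.78 (95% Poisson interval 2.86 to 16.9). It was 8.91 (4.45 to 15.9) in PH80_HC replicate 1, so which is lower cannot be told. Neutrophil markers summed to 824, 598 and 2175 in PH80_HC, 1483, 368 and 2389 in PH80_G+H, 598, 5942 and 307 in PH80 and 145, 285 and 508 in PH70, where Mpo, 1 of the 8, was at 0. The 8 macrophage markers summed to 15726 to 25800.2 in PH80_HC, 8313 to 12285 in PH80_G+H, 8491 to 20449 in PH80 and 7217 to 9356 in PH70. The part of cell makeup and of the length trend in the Rgs16 values was not tested.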

How the data were processed

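Column-purified total RNA (100 ng) went into a stranded mRNA kit, per the labels' protocols. GRCm38 (mm10) and DESeq2 are named, per the submitters' processing notes; the sources used here do not give the aligner, counter or annotation. The authors deposited a normalised signal per gene and library. Multiplied by the library's size factor, 100% of the values were whole reads within 0.01, so it holds counts over a size factor. Differences were tested with limma 3.58.1 (R 4.3.3) on log2(value + 1), with all 12 libraries, 4 groups as 1 factor, an intensity trend and Benjamini-Hochberg adjustment over the 12570 genes that had 3 or more libraries at 10 or above. edgeR 4.0.16 and DESeq2 1.42.0 on the recovered reads were alternatives. The fits were tested on simulated data. Intervals are exact Poisson. Gene positions are from GENCODE on GRCm38 and promoters from RefSeq. Named genes are up to 4 called members of each list with the smallest adjusted p, the 8 highest and 4 lowest r with Rgs16, the coding genes within 500 kb and a set of RGS, G protein and metabolic genes. Rgs16 and the lists were chosen with earlier results of these data known. Replicate numbers did not pair libraries. Some genes that this rule names are not reported here.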

Additional observations from a re-analysis of the deposited data

How the results depend on the processing

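The Rgs16 difference between PH80 and PH70 was -4.71 with a pseudocount of 10 and ran from -6.24 to -5.58 when each library was left out in turn. The other Rgs16 differences ran from 0.32 to 1.97 (PH80_HC against PH80), 0.51 to 1.73 (PH80_G+H against PH80), -5.53 to -3.87 (PH80_HC against PH70), -5.33 to -4.11 (PH80_G+H against PH70) and -0.64 to 1.02 (PH80_HC against PH80_G+H). Outside these ranges, edgeR and DESeq2 gave 2.25 and 2.25 for PH80_HC against PH80, -3.54 and -3.64 for PH80_HC against PH70, and 1.197 and 1.03 for PH80_HC against PH80_G+H, and a pseudocount of 10 gave -3.78 for PH80_HC against PH70. Counts of called genes depended on the setting. In PH80 against PH70, 480 genes were called, but 237 with equal totals, 950 with DESeq2, 293 with the replicate block, 303 without the library of the steepest length trend in each group (chosen after seeing the data) and 61 to 725 with 1 library left out. In PH80_HC against PH80, 112 became 72 with equal totals, 503 with DESeq2, 2 with only the 2 groups compared, 65 with the block, 64 without those libraries and 28 to 125. In PH80_G+H against PH80, 15 became 0 with equal totals, 0 with no intensity trend, 203 with DESeq2, 9 with the block, 26 with the length trend removed, 24 without those libraries and 0 to 26.

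DESeq2 called 8, 4 and 1 G protein signalling genes in these comparisons (0 to 7, 0 to 1 and 0 to 0 with 1 library left out), 17, 7 and 4 feeding and fasting genes (1 to 13, 0 to 3 and 0 to 1), and 7 and 4 clock genes in PH80_HC and PH80_G+H against PH80 (2 to 4 and 0 to 2; 6 to 10 in PH80 against PH70). In PH80_HC against PH80, feeding and fasting genes numbered 0 with equal totals, no intensity trend, only the 2 groups and the block, and clock genes 1 with only the 2 groups. In PH80_G+H against PH80, feeding and fasting genes numbered 0 with equal totals and no intensity trend. Clock genes there numbered 0 with equal totals, no intensity trend and the block, and 1 with edgeR. The cause was not tested. No result changed direction among those past the threshold. Same-numbered libraries had correlations of deviations from -0.367 to 0.373 over 18 pairs, of which 6 exceeded 0.1, so the block was not used as pairing. At 3 to 16 Rgs16 reads, depth limits the values in PH80.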
